A study of Mus musculus with 6 samples.

Results

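The genes described here are 7 transcription factor genes that set gut, colon and enterocyte identity: Cdx1, Cdx2, Hnf4a, Hnf4g, Gata4, Gata6 and Klf5. They were chosen by gene name, and all 7 were found among the 55487 gene rows of the count files. RNA came from purified colonic crypt cells of C57BL/6 mice aged 4 weeks. The 3 control samples came from mice that carried floxed alleles of M14 (M14(f/f)), read here as Mettl14, the RNA-binding subunit of the complex that writes N6-methyladenosine on RNA. The 3 mutant samples came from mice with the same floxed alleles together with Villin-Cre, which expresses Cre recombinase in gut epithelium. Mutants alone carried Cre, so its own effects and those of the deletion cannot be told apart. The labels do not state the sex of the mice or whether animals were pooled. Where separate animals are not stated, p-values measure the spread between these samples.

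Gut identity is held by a small group of factors that bind many of the same enhancers. CDX1 and CDX2 are caudal-type homeobox proteins that specify hindgut and intestine, and loss of CDX2 is known to let foregut and stomach genes appear in the gut. HNF4A and its relative HNF4G are nuclear receptors that drive enterocyte genes for lipid handling and the brush border. GATA4 and GATA6 are zinc finger factors, of which GATA4 is known for the proximal small intestine and GATA6 is expressed along the whole gut. KLF5 is a Kruppel-like zinc finger factor of proliferating crypt cells.

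Gene counts sum all transcripts of a gene, so the start sites of the members matter for what a value holds. Of the 7 genes 2 had an entry in the RefSeq promoter table (build GRCm38.p6), each window running from 250 bases before to 50 bases after an annotated start. Hnf4a had 2 such windows, whose starts lie 40298 bases apart. They are the upstream P2 and the downstream P1 promoter, and the counts do not separate their transcripts. Cdx2 had 1 window. All windows found for the members are shown. They belong to a gene that fell, Hnf4a, and a gene whose fall or rise was not detected, Cdx2. Capitals mark matches on either strand to AGATAA, a site of GATA factors, or to CAAAGTC, part of an HNF4 site.
Hnf4a upstream window, plus strand, chr2:163506607-163506906: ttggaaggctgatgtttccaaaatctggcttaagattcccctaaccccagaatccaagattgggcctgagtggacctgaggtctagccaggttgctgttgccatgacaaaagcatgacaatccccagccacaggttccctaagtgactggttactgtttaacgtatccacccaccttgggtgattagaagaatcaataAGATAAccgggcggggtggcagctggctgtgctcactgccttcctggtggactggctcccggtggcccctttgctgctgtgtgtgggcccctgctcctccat
Hnf4a downstream window, plus strand, chr2:163546905-163547204: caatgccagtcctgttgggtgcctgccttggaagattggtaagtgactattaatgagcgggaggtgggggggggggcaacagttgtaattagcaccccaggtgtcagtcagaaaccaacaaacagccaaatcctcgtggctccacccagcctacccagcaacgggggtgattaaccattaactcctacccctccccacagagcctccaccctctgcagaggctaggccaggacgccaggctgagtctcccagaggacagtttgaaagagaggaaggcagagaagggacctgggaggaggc
Cdx2 window, minus strand, chr5:147307200-147307499: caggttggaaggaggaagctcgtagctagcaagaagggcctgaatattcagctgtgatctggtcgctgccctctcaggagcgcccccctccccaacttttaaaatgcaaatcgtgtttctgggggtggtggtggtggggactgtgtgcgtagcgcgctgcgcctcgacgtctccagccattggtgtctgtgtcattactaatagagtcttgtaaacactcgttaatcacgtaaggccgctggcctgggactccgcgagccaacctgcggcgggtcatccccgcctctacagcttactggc

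The upstream Hnf4a window held 1 match to AGATAA, at bases -52 to -47 from the start. The downstream Hnf4a window and the Cdx2 window held none. Among all 32851 promoter windows of this length 11.2% held AGATAA and 4.44% held CAAAGTC. These 3 windows held no match to that HNF4 motif or to TTTATN, a short CDX motif that 39.9% of all windows held. The KLF motif CACCC, held by 57.5% of all windows, matched 3 times in the upstream and 5 times in the downstream Hnf4a window and 1 time in the Cdx2 window. Matches of different motifs did not overlap. A match describes letters in a window and not a bound site. The Cdx2 window held 18 CpG dinucleotides and each Hnf4a window 4, against a median of 7.

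Library totals ran from 24181631 to 35183636 counts. Counts were scaled by TMM, edgeR's correction for composition, and are given as CPM, counts scaled to a common library size. A count of 0 allows up to 0.0853 CPM (3 counts) in the deepest library and 0.124 CPM in the shallowest, for counting error alone. Both limits use the library totals before TMM scaling, so they are approximate for the CPM given here. Mettl14 stood at 26.2, 20.9 and 22.04 CPM in controls and 14.0, 13.8 and 10.5 CPM in mutants, so the targeted transcript was lower in every mutant library. Mutants 1 and 2 stood apart in sex-linked genes. Xist, the RNA of the inactive X chromosome, had 16870 counts in mutant 1 and 1328 in mutant 2, against 44 to 55 in the other libraries. The Y-linked Ddx3y had 14 counts in mutant 1, 949 in mutant 2 and 1615 to 1969 elsewhere. Mutant 2 thus held both RNAs, each at a count between mutant 1 and the other libraries. Whether it holds RNA of more than 1 animal was not tested. Fold changes and calls below were therefore also computed without these 2 libraries. This leaves mutant 3 alone against 3 controls and assumes that it varies as the controls do. Ratios and shares within gene pairs, levels per length, summed marker levels and nearest profiles were not computed in this way. Genes were compared by edgeR's quasi-likelihood F test, 2-sided, with Benjamini-Hochberg adjustment over 18539 tested genes and a threshold of 0.05. Fold changes are mutant minus control on the log2 scale.

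Of the 7 factors 3 fell in mutants (Hnf4g, Hnf4a and Klf5), none rose, and 4 did not pass (Cdx1, Cdx2, Gata4 and Gata6). Across all tested genes 46.3% passed in either direction, 23.5% as higher and 22.8% as lower, so a count of 3 in 7 is near the background. The median log2 fold change of the 7 was -0.27, the value of the rare transcript Gata4, beside 0.01 over all tested genes. It was -0.14 without control 1, -0.18 without mutant 1 and -0.15 without mutants 1 and 2. For 4 of the 7 no mutant library lay within the control range of CPM or the reverse, as for 56.9% of all tested genes. What differed among the factors was the size of the change, from 3.2-fold lower for Hnf4g to a level of 101% of controls for Cdx1. All 3 falls were also called without mutants 1 and 2.

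**Figure D1:**
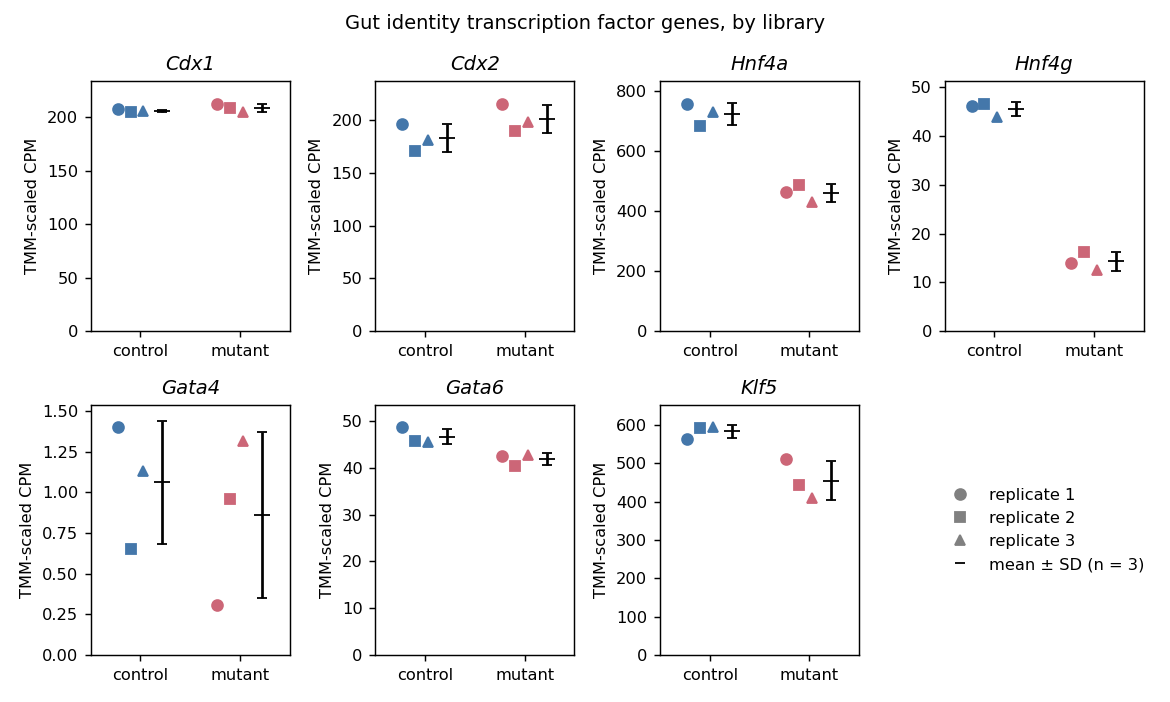
TMM-scaled CPM (vertical axes, each from 0) of the 7 genes in 3 control and 3 mutant libraries; symbols mark the replicate number and the bar is the mean ± SD. Hnf4g and Hnf4a are far lower in all 3 mutants, Klf5 and Gata6 are slightly lower, and the groups of Cdx1, Cdx2 and Gata4 overlap.

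Hnf4g (ENSMUSG00000017688.14, plus strand of chromosome 3, 3508030 to 3658052 on GRCm38) encodes the HNF4 paralogue that is enriched in the gut. It stood at 46.2, 46.7 and 43.9 CPM in control 1, 2 and 3 and at 14.1, 16.3 and 12.6 CPM in mutant 1, 2 and 3. The highest mutant library thus lay far below the lowest control. The means were 45.6 ± 1.46 and 14.3 ± 1.88 CPM (SD, n = 3 each), which puts mutants at 31.4% of controls. The log2 fold change was -1.68 (SE 0.099, edgeR adjusted p = 1.80e-06), with a 95% interval for the ratio of 0.268 to 0.364. Of the 18539 tested genes 1.71% had a lower log2 fold change. Hnf4g was the one factor still called when edgeR tested against a 1.5-fold change (adjusted p = 1.23e-05). Without mutants 1 and 2 its log2 fold change was -1.89 (adjusted p = 8.87e-06).

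Hnf4a (ENSMUSG00000017950.16, plus strand of chromosome 2, 163506808 to 163572910) encodes the broadly expressed paralogue, a master regulator of endodermal epithelia. Controls held 757, 684 and 729 CPM and mutants 462, 488 and 430 CPM. No mutant library reached the lowest control. The means were 723 ± 36.7 and 460.1 ± 29.0 CPM, or 63.6% of controls. This was a log2 fold change of -0.65 (SE 0.084, edgeR adjusted p = 1.93e-04), and the interval of the ratio ran from 0.558 to 0.724. Against a 1.5-fold change Hnf4a was not called (adjusted p = 0.328). Without mutants 1 and 2 the log2 fold change was -0.78 (adjusted p = 0.00109). The annotated antisense gene Hnf4aos, which overlaps the upstream part of Hnf4a on the other strand, held at most 2 counts in any library. Fragments were counted by strand, so these counts are not shared with Hnf4a. Small gene models inside Hnf4a and Hnf4g on the same strand held at most 14 counts in a library.

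The 2 HNF4 genes moved by different amounts. The log2 ratio of Hnf4g to Hnf4a within a library hardly depends on how libraries are scaled. It was -4.03, -3.87 and -4.05 in controls and -5.03, -4.90 and -5.09 in mutants. Every mutant lay below every control, and the mean difference was -1.02. An exact 2-sided permutation test gave p = 0.1, which is the smallest that 3 against 3 libraries allow, and p = 0.3 after adjustment over 3 ratios. Per length of exon, Hnf4g made up 10.4% ± 0.640 of the summed HNF4 signal in controls and 5.38% ± 0.354 in mutants.

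**Figure D2:**
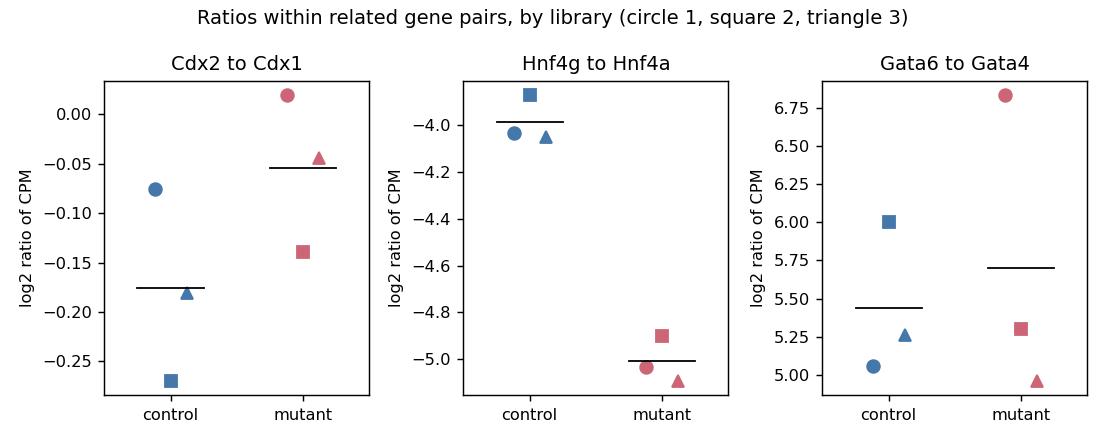
Log2 ratio of CPM within each library (vertical axes, which do not start at 0) for Cdx2 to Cdx1, Hnf4g to Hnf4a and Gata6 to Gata4, with lines at the group means (n = 3). The groups separate for Hnf4g to Hnf4a, between -4.05 and -3.87 in controls and between -5.09 and -4.90 in mutants, and overlap for the other ratios.

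Cdx1 (ENSMUSG00000024619.8, minus strand of chromosome 18, 61018862 to 61036199) was level across the libraries. It stood at 207, 205 and 205 CPM in controls and at 213, 208 and 205 CPM in mutants, and the groups overlapped. Its log2 fold change was 0.02 (SE 0.065, edgeR adjusted p = 0.844), with an interval of the ratio from 0.915 to 1.12. A change beyond that range lies outside what these libraries allow at 95%. Its sign was not fixed, being -0.04 without mutants 1 and 2.

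Cdx2 (ENSMUSG00000029646.3, minus strand of chromosome 5, 147300805 to 147307270) encodes the CDX factor whose loss lets the gut take on foregut character. Controls held 197, 170.2 and 181 CPM and mutants 215, 189 and 198 CPM. The ranges overlapped, because mutant 2 lay below control 1. The means were 183 ± 13.3 and 201 ± 13.3 CPM. The log2 fold change of 0.14 (SE 0.083) did not pass (edgeR adjusted p = 0.203), and the ratio's interval was 0.967 to 1.25. The log2 ratio of Cdx2 to Cdx1 averaged -0.18 ± 0.097 in controls and -0.05 ± 0.080 in mutants, with overlapping groups (exact permutation p = 0.2, adjusted p = 0.3).

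Gata6 (ENSMUSG00000005836.10, plus strand of chromosome 18, 11052064 to 11085635) stood at 48.6, 45.9 and 45.6 CPM in controls and 42.4, 40.3 and 42.9 CPM in mutants. The groups did not overlap. The means were 46.7 ± 1.68 and 41.9 ± 1.35 CPM, a log2 fold change of -0.16 (SE 0.067). The unadjusted p was 0.0412 by edgeR and the adjusted p was 0.0798, so the difference did not pass. Its interval of the ratio ran from 0.808 to 0.995.

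Gata6os (ENSMUSG00000097222.2, minus strand of chromosome 18, 10987944 to 11052567), an antisense RNA gene that overlaps the start of Gata6, fell in mutants. It held 9.62, 10.2 and 8.61 CPM in controls and 3.59, 3.76 and 2.98 CPM in mutants. Every mutant lay far below every control. The log2 fold change was -1.47 (SE 0.15, edgeR adjusted p = 5.53e-05), and -1.70 without mutants 1 and 2 (adjusted p = 3.48e-04). The difference between the changes of Gata6os and Gata6 was not tested.

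Gata4 (ENSMUSG00000021944.15, minus strand of chromosome 14, 63198922 to 63271692) was a rare transcript in colonic crypts. Of the tested genes 23.2% had a lower mean CPM. It had 49, 22 and 35 counts in controls and 8, 24 and 48 in mutants, that is 1.40, 0.653 and 1.13 CPM against 0.309, 0.960 and 1.31 CPM. The groups overlapped in part, with mutant 1 below every control and control 1 above every mutant. The log2 fold change of -0.27 had an SE of 0.47 (edgeR adjusted p = 0.670) and an interval of the ratio from 0.401 to 1.72. Changes within that interval cannot be told apart from no change in these libraries. Without mutants 1 and 2 the sign turned (0.28). Gata6 was 96.4% ± 1.17 of the summed GATA4 and GATA6 gene signal per length in controls and 96.7% ± 1.88 in mutants.

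Klf5 (ENSMUSG00000005148.8, plus strand of chromosome 14, 99298691 to 99315036) showed the smallest of the 3 falls. Controls held 564, 592 and 593 CPM and mutants 511, 443 and 410.0 CPM. The groups did not overlap, with mutant 1 nearest to the controls. The means were 583 ± 16.8 and 455 ± 51.7 CPM, or 78.0% of controls. This was a log2 fold change of -0.36 (SE 0.094, edgeR adjusted p = 0.0114), and the ratio's interval was 0.674 to 0.903. Klf5 was not called at a threshold of 0.01 or against a 1.5-fold change. With single libraries left out the log2 fold change ran from -0.46 to -0.29, with an edgeR adjusted p of up to 0.0483. Without mutants 1 and 2 the log2 fold change was -0.54 (adjusted p = 0.00484).

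**Figure D3:**
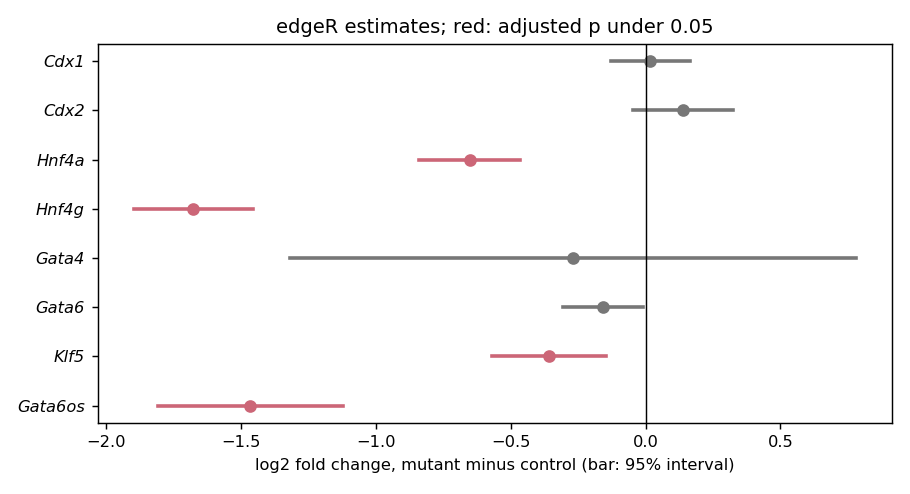
edgeR log2 fold change, mutant minus control (horizontal axis), of the 7 genes and of Gata6os, with 95% intervals as bars and n = 3 libraries per group. Hnf4a, Hnf4g, Klf5 and Gata6os (red) passed the threshold, and the widest interval belongs to the rare transcript Gata4.

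Levels of different genes are comparable per length, as CPM per kilobase of annotated exon. In controls the order was Hnf4a at 149.8 ± 7.60, Cdx1 at 118 ± 0.667, Klf5 at 112 ± 3.24, Cdx2 at 80.8 ± 5.88, Hnf4g at 17.3 ± 0.554, Gata6 at 7.18 ± 0.259 and Gata4 at 0.272 ± 0.0967 CPM per kilobase. No neighbours in this order overlapped over the 3 control libraries. In mutants Cdx1 led at 119 ± 2.27. It was followed by Hnf4a at 95.3 ± 6.00, Cdx2 at 88.9 ± 5.87 and Klf5 at 87.5 ± 9.94 CPM per kilobase, and the ranges of these 3 ran into one another. Gata6 (6.43 ± 0.207) then lay above Hnf4g (5.44 ± 0.715), the reverse of the control order, with no overlap in controls and a narrow gap in mutants (6.20 against 6.19 between the closest libraries). Annotated exon length includes exons that crypt cells may not use, so these levels are approximate.

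The core letters of the m6A consensus, GGACT in DNA, were counted in the longest protein-coding transcript of each gene in GENCODE vM21, on the transcript strand. Over 21901 genes the median was 3 occurrences, or 1.01 per kilobase, and 87.6% of genes held at least 1. Cdx2 held 8 (3.54 per kilobase), Cdx1 5 (2.86) and Gata4 9 (2.65), and 95.6% of genes were less dense than Gata4, the lowest of these 3. Hnf4a held 3 (0.688 per kilobase), Klf5 3 (0.895), Hnf4g 2 (0.859) and Gata6 2 (0.618), all below the median density. For Klf5 and Hnf4g 43.5% and 41.2% of genes were less dense, which is near the middle of all genes. Such letters describe the transcript, and these libraries do not measure methylation.

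The 24 other gut transcription factor genes, listed with earlier results of these data known, divided. In mutants 4 rose, 10 fell and 10 missed the threshold, and the list's median was -0.13 on the log2 scale (-0.20 without mutant 1 and -0.27 without mutants 1 and 2). Among all tested genes 46.3% were called, 23.5% as higher and 22.8% as lower. Vdr, the vitamin D receptor gene, fell from 457 ± 24.9 to 169.8 ± 18.7 CPM (edgeR adjusted p = 3.97e-06). Foxa2, a pioneer factor of endoderm, fell from 19.3 ± 1.77 to 8.89 ± 1.34 CPM, and Ppara, the receptor that drives fatty acid oxidation genes, from 33.8 ± 4.12 to 13.3 ± 3.55 CPM. Foxa1, another pioneer factor, lies outside the naming rule and was chosen after its values were seen. It rose from 111 ± 4.97 to 157 ± 5.63 CPM (adjusted p = 3.35e-04). Without mutants 1 and 2 the list showed 4 rises and 11 falls, and against a 1.5-fold change 3 falls.

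**Figure D4:**
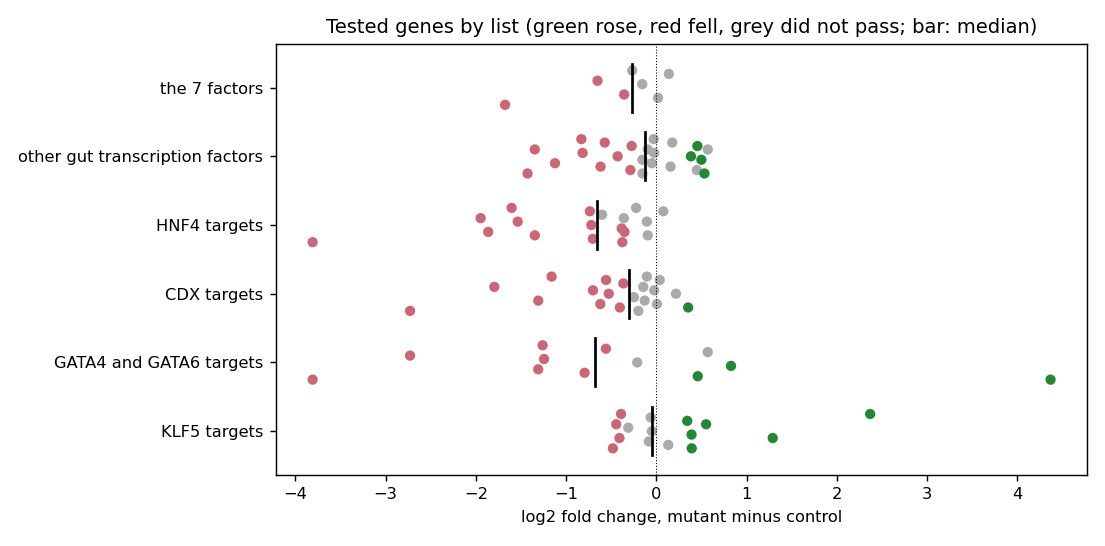
Log2 fold change, mutant minus control (horizontal axis), of every tested gene in 6 lists (rows); each point is a gene and the bar is the list's median. The median of the HNF4 list lies at -0.65 and that of the KLF5 list at -0.05.

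Genes commonly named as HNF4 targets were lower or did not pass. Of 20 genes 18 were tested, of which 12 fell, none rose and 6 missed the threshold. Over all tested genes 22.8% fell and 23.5% rose. The list's median was -0.65 on the log2 scale, beside 0.01 over all genes. Apob, the core protein of chylomicrons, averaged 232 CPM in controls and 76.4 CPM in mutants (log2 fold change -1.60, SE 0.083, edgeR adjusted p = 8.09e-07). Cldn15, a pore-forming claudin, averaged 129 ± 11.8 and 44.5 ± 6.02 CPM. Mttp, which loads lipid onto apolipoprotein B, averaged 8.56 ± 1.70 and 2.23 ± 0.208 CPM. Cpt1a, the entry enzyme of mitochondrial fatty acid oxidation, had a log2 fold change of -0.72 (adjusted p = 4.60e-05). Fabp2, an intestinal fatty acid binding protein gene, stood at 469.9 ± 150.0 and 495 ± 35.8 CPM and did not pass. Against a 1.5-fold change 5 genes of this list were called lower.

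Genes commonly named as CDX targets divided between falls and values that did not pass. Of 20 tested genes 10 fell, 1 rose and 9 missed the threshold, and the list's median was -0.31 on the log2 scale. Calls among all tested genes made up 46.3%, with 22.8% lower and 23.5% higher. Mep1a, a brush border protease, and Sis, the sucrase-isomaltase gene, had log2 fold changes of -1.80 (SE 0.17) and -1.31 (SE 0.10). Gucy2c, the guanylin receptor, averaged 581 ± 42.8 CPM in controls and 357 ± 27.3 CPM in mutants (adjusted p = 1.91e-04). The goblet cell mucin gene Muc2 had a log2 fold change of -1.16. Furin, a protease gene, was the member that rose (0.35, adjusted p = 0.00220). The intestinal cadherin gene Cdh17, a textbook CDX2 target, stood at 1146 ± 53.5 and 1175 ± 169 CPM and did not pass (adjusted p = 0.815). At a threshold of 0.01 the list held 6 calls in place of 11, and against a 1.5-fold change 4. Furin, Cdh17 and Fabp2 lie outside the naming rule and were picked with their values known.

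Genes commonly named as targets of GATA4 and GATA6 went both ways, with 7 of 12 lower, 3 higher and 2 that did not pass (median -0.68). For this list and the KLF5 list below, the share over all tested genes was 22.8% lower and 23.5% higher. Cyp27a1, a bile acid synthesis enzyme gene, averaged 14.1 ± 0.471 and 5.93 ± 0.521 CPM, and Slc51a, a subunit of the basolateral bile acid exporter, 75.8 ± 0.943 and 43.6 ± 6.58 CPM. Fabp6, the ileal bile acid binding protein gene, was the largest rise of the list (log2 fold change 4.37, SE 0.30, edgeR adjusted p = 5.16e-06). Sis stands in this list too. Of 15 genes commonly named as KLF5 targets 6 rose, 4 fell and 5 did not pass. Their median of -0.05 had no fixed sign. It was 0.03 with scaling by totals alone, 0.04 without the most abundant rows, 0.01 without control 1, 0.05 without mutant 1, 0.02 without mutant 3 and 0.05 without mutants 1 and 2. Cldn4, a claudin gene, averaged 84.8 ± 14.96 and 438 ± 97.7 CPM. Tnfrsf11a, the receptor of RANKL, averaged 85.4 ± 3.21 and 208 ± 30.7 CPM. Birc5, a gene of dividing cells, rose by 0.55 and Pparg, a lipid-sensing receptor gene, fell by 0.45 on the log2 scale. Against a 1.5-fold change 6 genes of the GATA list and 2 of the KLF5 list were called.

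Stomach and foregut genes were mostly at the detection limit in both groups. Of 18 listed genes 17 were matched by symbol and 3 passed the filter on low counts, of which 2 rose and 1 did not pass. Genes that passed the filter through one group alone had to differ, so this count carries no weight. Muc6, a gland mucin of the stomach and duodenum, averaged 2.96 ± 1.08 CPM in controls and 48.4 ± 5.06 CPM in mutants (log2 fold change 4.03, SE 0.21, edgeR adjusted p = 8.27e-07). Tff1, a trefoil peptide of the stomach surface, averaged 0.0620 ± 0.0647 and 0.688 ± 0.110 CPM, from 2, 0 and 4 counts in controls and 15, 20 and 25 in mutants. Tff2, the trefoil peptide that accompanies Muc6 in stomach glands, stood at 1.72 ± 1.00 and 0.925 ± 0.456 CPM and did not pass (adjusted p = 0.194), but was called as a fall without control 2. Sox2, the defining foregut factor, had at most 1 count in a library. With no filter on low counts 3 genes of the list rose and 2 fell. With 1 library fewer, 4 genes were called without control 1, without control 2 or without mutant 3.

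In every library the colon epithelium markers summed to more CPM than any other list of cell type markers. The 16 colon epithelium markers summed to 33171 to 36936 CPM in controls and 20464 to 22368 CPM in mutants. Of them 10 fell, 2 rose and 4 did not pass, and with scaling by library totals alone 4 fell. In the main fit 22.8% of all tested genes fell and 23.5% rose. Car1 and Slc26a3, an absorptive cell enzyme and chloride exchanger, had log2 fold changes of -1.43 and -1.57, Muc2 of -1.16 and the claudin gene Cldn3 of 0.60. Epcam, on all epithelial cells, averaged 2180.4 ± 101 and 1621 ± 186 CPM (log2 fold change -0.43, adjusted p = 0.00870), while Cdh1, the epithelial cadherin gene, averaged 1413 ± 26.4 and 1666 ± 79.5 CPM (0.24, adjusted p = 0.0428). The rise of Cdh1 was not called without control 1, 2 or 3, without mutant 2 or 3, or without mutants 1 and 2 (adjusted p from 0.0879 to 0.144), nor with upper quartile scaling (0.0553) or with no filter on low counts (0.118). Epcam and Cdh1 were chosen after their values were seen. In bulk RNA fewer cells of a type and less RNA per cell cannot be told apart.

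Markers of other cells moved in the same libraries as the falls of Hnf4g, Hnf4a and Klf5. For each of these lists the share over all tested genes was 23.5% higher and 22.8% lower. The 14 macrophage and dendritic cell markers summed to 37.6 to 47.3 CPM in controls and 82.6 to 110.3 CPM in mutants. Of them 13 rose and 1 fell (C1qa), and 12 rose without control 1, without control 3 or without mutant 2. Fewer still were called higher without mutants 1 and 2, where mutant 3 alone stands for its group. The median log2 fold change of the 14 markers was 1.80, and 1.40 without mutants 1 and 2. Csf1r, Lyz2, Itgax and Itgam had the smallest p-values. Of 9 tested lymphocyte markers 1 rose (Cd4), which was not called without mutants 1 and 2, and the summed level of the list was 12.9 to 16.2 and 15.9 to 22.8 CPM. Of 5 tested neutrophil markers 4 rose, S100a8, S100a9, Csf3r and Ly6g (9.39 to 13.3 and 13.7 to 40.2 CPM). Ly6g was not called without control 1 or without mutant 2. S100a8, S100a9, Csf3r and the lymphocyte marker Cd4 had at most 9 counts in any control. They passed the filter on low counts through mutants alone, so their rises carry no weight. Fibroblast markers fell in 7 of 10 cases and rose in 1, Pdgfrb (256 to 288 and 137 to 159 CPM). Smooth muscle markers fell in 4 of 8 cases, and in 2 without mutant 3 (77.9 to 86.2 and 59.9 to 64.7 CPM). Endothelial markers rose in 2 and fell in 1 of 8 cases (13.1 to 14.4 and 21.0 to 23.4 CPM). The fall, of Emcn, was not called without control 2 or 3 or mutant 2 or 3, or without mutants 1 and 2. Of 5 tested enteric nerve and glia markers 1 rose and 1 fell (4.30 to 5.34 and 4.45 to 6.02 CPM). That fall, of Uchl1, was not called without control 1 or 3 or mutant 1 or 3. Uchl1 passed the filter through controls alone, with 4, 15 and 7 counts in mutants, so its fall carries no weight. Neither the rise nor the fall was called at a threshold of 0.01. No marker was at 0 in every library. The part of these cells in the changes of the 7 factors was not tested.

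For each factor the 2 genes with the most similar profile were found among 10310 genes of at least 5 CPM, by the root mean square difference of centred log2 CPM over the 6 libraries. Hnf4g lay nearest to Zan, the zonadhesin gene (0.0750), and Car12, a carbonic anhydrase gene (0.0920), which fell by 1.68 and 1.83 on the log2 scale. Hnf4a lay nearest to Ensa (0.0228), which encodes a phosphatase inhibitor, and Acat1 (0.0270), a mitochondrial thiolase gene, which fell by 0.65 and 0.61. Klf5 was nearest to Atf7 (0.0273) and Ino80 (0.0291), which encode a transcription factor and a chromatin remodeller. Cdx1 was nearest to Surf4 (0.0176) and Sar1a (0.0179), Cdx2 to Cenpk (0.0306) and Zmpste24 (0.0334), and Gata6 to Gpr107 (0.0199) and Ube3b (0.0207). For Gata4 the nearest, Hoxa10 (0.245) and Ggh (0.281), were much less alike, at the counts given above. With 2 groups of 3 libraries, likeness mostly reflects the difference between groups.

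**Figure D5:**
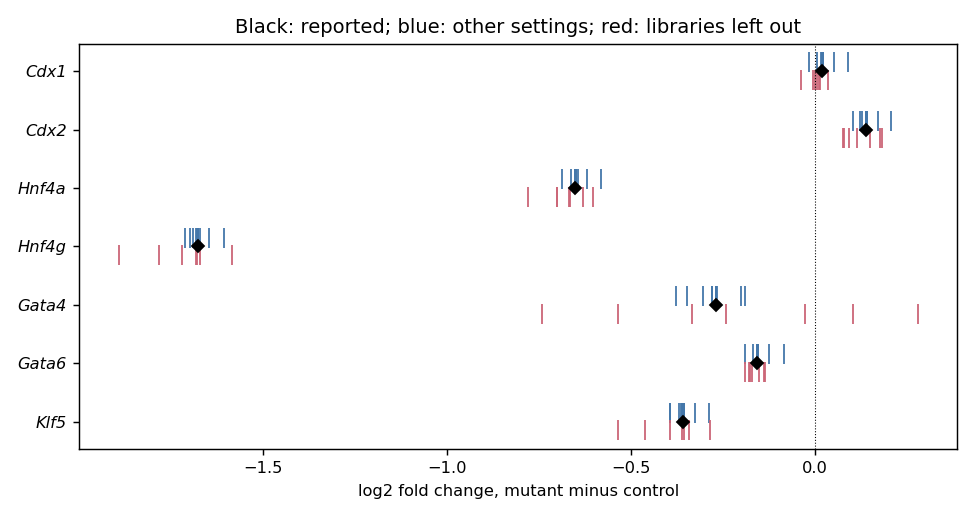
Log2 fold change, mutant minus control (horizontal axis), of the 7 genes as reported (black), under other scalings, filters and tests (blue), and with libraries left out (red). Hnf4g stays between -1.89 and -1.58 and Hnf4a between -0.78 and -0.58, whereas Gata4 runs from -0.74 to 0.28.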

How the data were processed

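The deposited files hold raw gene counts that the authors made for each library from poly(A) RNA. The submitters' processing notes name Trim Galore 0.6.5, STAR 2.6.1d and the build GRCm38. Per the file headers, featureCounts 1.6.4 counted fragments by strand over GENCODE vM25 exons. No option for fragments with several alignments or several genes was set there. All 55487 rows named a gene.

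The test was edgeR 4.0.16 (R 4.3.3): filterByExpr (minimum count 10, minimum total 15), TMM scaling and the quasi-likelihood F test on genotype. SEs came from the fold change and F. Log2 CPM had a prior count of 2. Alternatives were other scalings and filters, DESeq2 1.42.0, limma-voom (limma 3.58.1), a null of 1.5-fold, a stricter threshold (0.01), the replicate number as a block, dropping the 20 rows with most counts, and leaving out libraries. Replicates differed by more than counting noise (mean chi-square per gene from 14.0 to 90.8). Fits were tested on simulated data.

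The members and the 14 other lists were chosen with earlier results of these data known. The text names the members, up to 4 tested genes per list by smallest p, genes overlapping a member on the other strand, and 2 nearest profiles per member. A few items under this rule are not reported here. Some genes stand in more than 1 list. Promoters are RefSeq's. The members' gene spans in GENCODE vM21 equal those of the count files.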

Additional observations from a re-analysis of the deposited data

How the results depend on the processing

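Hnf4g kept its direction and its call in all 19 alternatives, with adjusted p at most 2.77e-05. Hnf4a (log2 fold change -0.65, adjusted p = 0.328) and Klf5 (-0.36) were not called against a 1.5-fold change, nor was Klf5 at a threshold of 0.01 (-0.36, adjusted p = 0.0114). The factors called thus numbered 1, lower, against a 1.5-fold change, while 2747 genes were called in all, with 1720 higher and 1027 lower, against 8589. That null asks for a larger change by construction. Cdx1 turned to -0.017 with no filter on low counts and -0.038 without mutants 1 and 2, and ran from -0.0075 to 0.034 with single libraries left out. Gata4 turned to 0.28 without mutants 1 and 2 and ran from -0.74 to 0.10 with single libraries left out, and the log2 ratio of Gata6 to Gata4 differed by -0.31 to 0.63. It was -0.31 without mutant 1, the library with 8 Gata4 counts. The cause of these turns was not tested. Of the other named genes Surf4 turned to -0.0068 with upper quartile scaling, -0.030 with no filter, -0.0061 with sample weights and -0.054 without mutants 1 and 2, and ran from -0.033 to 0.023 with single libraries left out. Elavl4 ran from -0.22 to 0.62 with single libraries left out. Without mutants 1 and 2 Ptprc and Sar1a turned to -0.061 and -0.020. Scaling by library totals alone shifted the median log2 fold change of all genes from 0.01 to 0.08, and no filter on low counts to 0.19. With replicate numbers as a block 7403 genes were called, the same 3 factors among them. Hnf4g, Hnf4a and Klf5 then had adjusted p of 1.38e-05, 0.00214 and 0.0341. No label says whether the numbers pair the samples. Deviations of same-numbered libraries correlated at -0.12, -0.07 and -0.14, and those of differently numbered libraries at -0.01 to 0.13. Deviations centred within groups of 3 depend on one another, so these values cannot decide whether the samples are paired. Counts of called genes in lists under each alternative were added after seeing the data, as were the members' median and genes named by their values. With the replicate block Cdh1, Emcn and Uchl1 were not called.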

Other observations

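The nearest genes on the chromosome did not share the members' changes in a single direction. Urad, which encodes an enzyme of urate breakdown, lies 7714 bases from Cdx2. It averaged 2.85 ± 0.297 CPM in controls and 1.06 ± 0.247 CPM in mutants (log2 fold change -1.44, SE 0.24, edgeR adjusted p = 0.00101), beside a Cdx2 that did not pass. Slc6a7, a proline transporter gene 4640 bases from Cdx1, fell by 0.72 on the log2 scale (adjusted p = 0.00359), whereas Pdgfrb, 8951 bases away on the other strand, rose by 1.33 (adjusted p = 8.30e-06). Ttpal, 29404 bases from Hnf4a, rose by 0.58 (adjusted p = 3.10e-04), and Fdft1, a sterol synthesis gene 19344 bases from Gata4, rose by 0.39 (adjusted p = 0.00199). Neil2, a DNA repair gene 5066 bases from Gata4, was under the filter on low counts, with 10, 20 and 24 counts in controls and 4, 3 and 4 in mutants. These neighbours were chosen after the values were seen.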
